A study of Mus musculus with 16 samples.

Results

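Mice fed WEPAK, an extract of Pacific krill soluble in water, were compared with mice not fed it, as the mean of the difference on a normal diet and the difference on a high-fat diet. All 16 of the 16 liver libraries in the series entered, 8 from mice with the extract and 8 from mice without it. Every mouse was a male C57BL/6J mouse with an age label of 4 weeks, and feeding lasted 18 weeks. Mice 4, 5, 7 and 8 (N) ate normal food with 10% fat. Mice 11, 12, 15 and 20 (NW) ate the same food with 1% WEPAK. Mice 23, 25, 28 and 29 (HF) ate high-fat food with 45% fat, and mice 34, 36, 38 and 40 (HFW) high-fat food with 1% WEPAK. For each gene, NW minus N and HFW minus HF were averaged on the log2 scale in 1 fit of all 4 groups, and below this average is called the mean WEPAK effect. The labels describe separate mice, 4 per group, so the spread is that between animals. They name no preparation or sequencing batch, and a batch that followed the groups and the feeding itself cannot be told apart.

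The liver takes up nutrients from the portal blood, releases glucose between meals, oxidizes or stores fatty acids, and makes most proteins of the blood plasma. Its hepatocytes also hold most of the body's machinery for breaking down sulfur amino acids and for recycling one-carbon units. Transcripts were counted by SuperSAGE, in which cDNA held by its poly(A) end is cut with NlaIII at CATG and a second enzyme, EcoP15I, then cuts out a short tag beside that site. A transcript therefore gives its tag beside its last CATG whatever its length, and the level of a gene is the number of its tags. Levels are given as CPM, the tags of a gene set to 1 library size for all mice after TMM normalization, in order of mouse number.

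The tags that the genes below would give were read from mouse GENCODE M21 transcripts (genome build GRCm38), as the last CATG and the bases after it, 26 in all. The labels do not give the tag length or the build used for the deposited table. The first 7 belong to genes with some of the clearest differences, and the last shows a tag that many genes share. Capitals mark the NlaIII site.
Dus1l: CATGgattgctttttaagaccaaatt
Slc25a5: CATGttgtataatataccatatcttg
Cbs: CATGaccctgcttagcccactcctca
Igfals: CATGgctgctcacttcctggatgcag
Lcat: CATGgtcttcagcaataagacactgg
Kdelr1: CATGtttttgtacagaatttgatggc
Sephs2: CATGaaaaattatttggaccaatata
Eef1b2: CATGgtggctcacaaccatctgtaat

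The Dus1l tag lies at chr11:120789532-120789557 on the minus strand, in the coding sequence of exon 14 of 14. The Slc25a5 tag lies at chrX:36798576-36798601 on the plus strand, in the 3′ UTR of exon 4 of 4. The Cbs tag lies at chr17:31612730-31612755 on the minus strand, in the 3′ UTR of exon 16 of 16. The Igfals tag lies at chr17:24881862-24881887 on the plus strand, in the 3′ UTR of exon 2 of 2. The Lcat tag lies at chr8:105939655-105939680 on the minus strand, in the coding sequence of exon 6 of 6. The Kdelr1 tag lies at chr7:45883662-45883687 on the plus strand, in the 3′ UTR of exon 5 of 5. The Sephs2 tag lies at chr7:127272199-127272224 on the minus strand, in the 3′ UTR of exon 1 of 1. None of these 7 tags was the last tag of another gene. The Eef1b2 tag lies at chr1:63180375-63180400 on the plus strand, in the 3′ UTR of exon 6 of 6. The last tag of Eef1b2 was also the last tag of 90 other genes, so its counts may hold theirs. Of the 1046 genes tested, 977 had a predicted tag, 816 of these in the 3′ UTR, and 49 shared their last tag with another gene.

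Among the genes with the smallest p, Dus1l, which modifies transfer RNA, Acaa2, of fatty acid oxidation, Cbs, of sulfur amino acid metabolism, and Trfr2, a sensor of iron, were higher with WEPAK. Igfals, a carrier subunit of growth factors, Kdelr1, of protein retrieval, Sephs2, of selenium metabolism, and Lcat, of plasma cholesterol, were lower. In the mean WEPAK effect 327 of 1046 genes passed, 31.3% (percent called), with 159 higher (15.2%) and 168 lower (16.1%). The test was edgeR's quasi-likelihood F test at an adjusted p of 0.05, with Benjamini-Hochberg adjustment over all 1046 genes, and "rose", "fell" and "passed" below refer to it. The higher genes differed by 0.46 to 1.65 on the log2 scale with a median of 0.86, and the lower ones by -0.49 to -2.58 with a median of -0.95. A difference beyond 1 was found for 41 of the higher genes and for 77 of the lower ones. For 243 of the 327 genes all 8 mice with WEPAK lay on the side of the change when set against the mean of the mice without it on their diet. These genes were picked by the test on the same mice, so this count describes them and is not separate evidence. The median over all genes tested was 0.03, and 535 of them had a positive value.

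On the normal diet alone 115 genes passed (11%), 38 higher (3.63%) and 77 lower (7.36%). On the high-fat diet alone 103 passed (9.85%), 44 higher (4.21%) and 59 lower (5.64%). The 48 genes that passed on both diets had the same direction on both, and were 41.7% of the normal diet's genes and 46.6% of the high-fat diet's. Of the genes that passed on the normal diet, 111 had the same direction on the high-fat diet. Of those that passed on the high-fat diet, 102 had it on the normal diet. The diets share no mice, and over all genes tested 791 of 1046 (75.6%) had the same direction in both, with a Pearson r of 0.756 and a Spearman rho of 0.726 across genes, which are not independent replicates. Of the 327 genes 163 passed on neither diet alone, 95 of them higher and 68 lower.

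**Figure D1:**
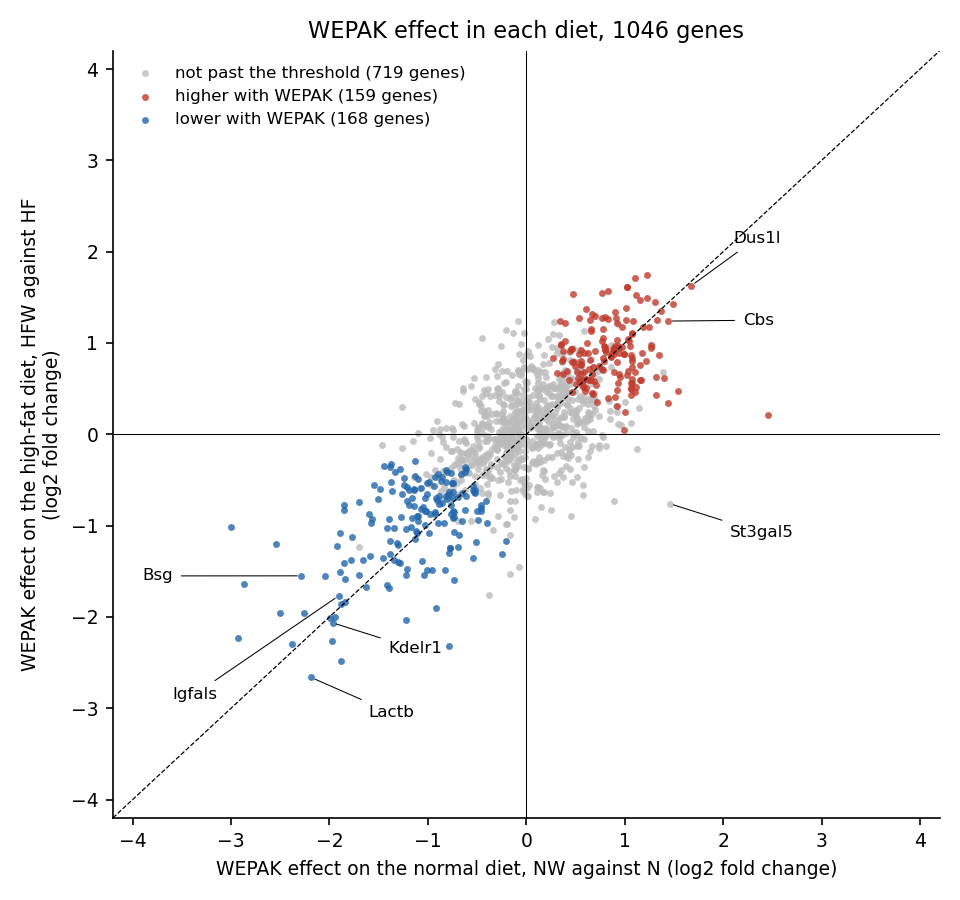
Log2 fold change with WEPAK on the normal diet (horizontal) and on the high-fat diet (vertical), 1 point per gene, for the 1046 genes tested. Red points (159) were higher and blue points (168) lower in the mean WEPAK effect, grey points (719) did not pass, and the dashed line marks equal values on both diets. Each coloured point has the same sign on both axes, and St3gal5, not past the threshold in the mean effect, is the point with 1.45 on the normal diet and -0.76 on the high-fat diet.

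Some genes separated the mice without any model. Within both diets the levels did not overlap between mice with and without WEPAK for 57 genes (5.45%), 21 higher (2.01%) and 36 lower (3.44%), of which 56 passed. For 17 genes (1.63%) all 8 mice with WEPAK lay on 1 side of all 8 without it, whatever the diet: Dus1l, Kdm4a, Acads, Abcc9 and Rad54l2 were higher, and Igfals, Lcat, Ccdc107, Cmtm4, Bag4, Nipsnap3b, Cdc37, Paqr9, Zdhhc9, Apol7a, Sqrdl and 2310003F16Rik lower. These were named because they separate, after their values were seen. No gene separated in opposite directions on the 2 diets.

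The libraries held 56655 to 149349 tags, with means of 75963 ± 16768 (SD, n = 4) for N, 74198 ± 30660.3 for NW, 118882 ± 23746 for HF and 75749 ± 21588 for HFW, counting tags of genes with a symbol. The HF libraries were the deepest on average, and the total with WEPAK minus that without it averaged -22449 tags (exact permutation test within diets, two-sided p = 0.100, adjusted p = 0.547 over 17 measures). For the TMM factor, which scales each library, this difference averaged -0.045 (same exact permutation test, p = 0.0416, adjusted p = 0.354). With DESeq2 size factors in place of TMM, 155 genes were higher and 174 lower. Thinned to the smallest library, 778 genes could be tested and 265 passed. N mouse 4 had the highest N value for Igfals, Lcat, Kdelr1, Bsg, Sephs2 and Tst and the lowest for Dus1l, Slc25a5, Cbs and Trfr2, so that in these 10 genes it lay farthest from NW. Without it the log2 fold change was -1.56 for Bsg against -1.92 with all mice, and 1.55 for Dus1l against 1.65. The count changed when mice were left out, and so did the number of genes past the filter. It was 263 of 1205 genes tested without N mouse 4 and 386 of 1216 without N mouse 8. Without both it was 267 of 1359 (104 higher and 163 lower). Of the 327 genes 216 passed in each fit without 1 mouse in which they could be tested, 92 higher and 124 lower. The genes described below are among them unless another value is given. Without the filter on low counts 10171 genes were tested and 254 passed, 65 higher and 189 lower, and the median of the 1046 genes was -0.10. Rises were then fewer in most lists described below, with 3 each for sulfur and one-carbon genes and for glucose genes, 2 each for cytochrome P450 genes, secreted carriers, genes of the secretory route and iron genes, and 1 each for genes of lipoproteins, amino acids, fatty acid synthesis, lysosomes and translation factors. The redox, transcription factor and pericentral lists had 0. Of the genes with values below, Agxt, Ambp, Apoc2, Apof, Bhmt2, Cdo1, Ces1c, Cp, Creb3l3, Cyp2d22, Cyp2d40, Dgat2, Lamp1, Nr1i3, Oit3, Pgk1, Sar1a, Slc2a2, Sod1, Tef and Ttr did not pass in that fit. Without N mice 4 and 8 the calls of Bhmt2, Nr1i3, Pgk1, Sod1, Tef and Zbtb16 were lost, beside those given with their values below.

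**Figure D2:**
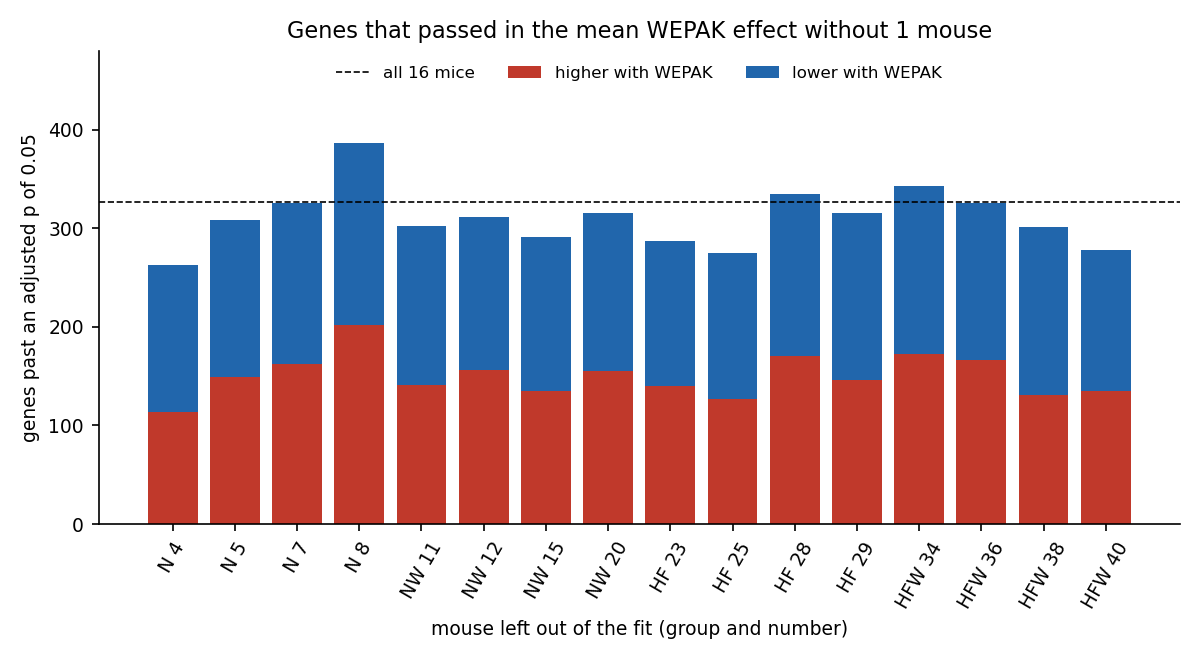
Number of genes past an adjusted p of 0.05 in the mean WEPAK effect when 1 mouse is left out of the fit (bars, red higher and blue lower), by the mouse left out. The dashed line is the 327 genes of all 16 mice, and the bars run from 263 without N mouse 4 to 386 without N mouse 8. The number of genes tested also differed: 1046 with all mice, 1205 without N mouse 4 and 1216 without N mouse 8.

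Igfals, which encodes the acid-labile subunit of the circulating complex of insulin-like growth factors, had the smallest p. It had 3332, 1392, 1178 and 1096 CPM in N, 546, 569, 356 and 365 in NW, 2811, 2841, 1474 and 2195 in HF, and 580.1, 647, 894 and 629 in HFW. N mouse 4 and HF mice 23 and 25 were highest, and all 8 mice with WEPAK lay below all 8 without it. The log2 fold change was -1.84 (SE 0.23, edgeR adjusted p = 3.45e-06), and it stayed between -1.92 and -1.59 in the fits without 1 mouse.

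Lcat, the plasma enzyme that esterifies cholesterol on high-density lipoprotein, had 7482, 2527, 3097 and 2276 CPM in N, 1297, 1224, 1236 and 521 in NW, 6653, 6589.8, 3898 and 5009.8 in HF, and 2193, 2062, 1658 and 1475 in HFW. Again the 2 sets of 8 did not overlap, the lowest value being that of NW mouse 20. Its log2 fold change was -1.71 (SE 0.24). Kdelr1, the receptor that returns escaped resident proteins to the endoplasmic reticulum, had 3243, 1192, 1125 and 747 CPM in N, 461, 416, 393 and 330.3 in NW, 3558, 2704, 1662 and 1856 in HF, and 824, 542, 596 and 376 in HFW. Within each diet every mouse with WEPAK lay below every mouse without it, and the log2 fold change was -2.02 (SE 0.26). Bsg encodes basigin, a chaperone of lactate transporters at the cell surface, and had 4388, 1383, 1032 and 1179 CPM in N, 444, 544, 243 and 365 in NW, 3337, 2585, 3382 and 2102 in HF, and 1079, 1171, 838 and 808 in HFW. Its groups did not overlap within either diet, and its log2 fold change was -2.28 on the normal diet, where N mouse 4 stood at 4388 CPM, and -1.55 on the high-fat diet.

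Dus1l, an enzyme that reduces uridines of transfer RNA to dihydrouridine, was the higher gene with the smallest p. It had 149, 267, 291 and 349 CPM in N, 836, 858, 674 and 1008 in NW, 200.03, 188, 73.7 and 229 in HF, and 487, 472, 484 and 676 in HFW. The lowest mouse with WEPAK (HFW mouse 36) lay above the highest without it (N mouse 8), and the log2 fold change was 1.65 (SE 0.22, edgeR adjusted p = 4.32e-06). Kdm4a, a histone lysine demethylase, had 312, 324, 489.7 and 532 CPM in N, 1024, 679.7, 974 and 1060.3 in NW, 189, 394, 459 and 492 in HF, and 708, 734, 671 and 761 in HFW. It too separated all 8 from all 8, with a log2 fold change of 1.03 (SE 0.20). Slc25a5, a carrier that exchanges ADP and ATP across the inner mitochondrial membrane, had 476, 839, 1218 and 1213 CPM in N, 1536, 1639.8, 3595 and 2642 in NW, 621, 632, 671 and 669.7 in HF, and 1009, 1101, 1826 and 2245 in HFW. The HF mice lay between 621 and 671 CPM, every mouse with WEPAK exceeded those without it on its diet, and the log2 fold change was 1.29 (SE 0.22).

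**Figure D3:**
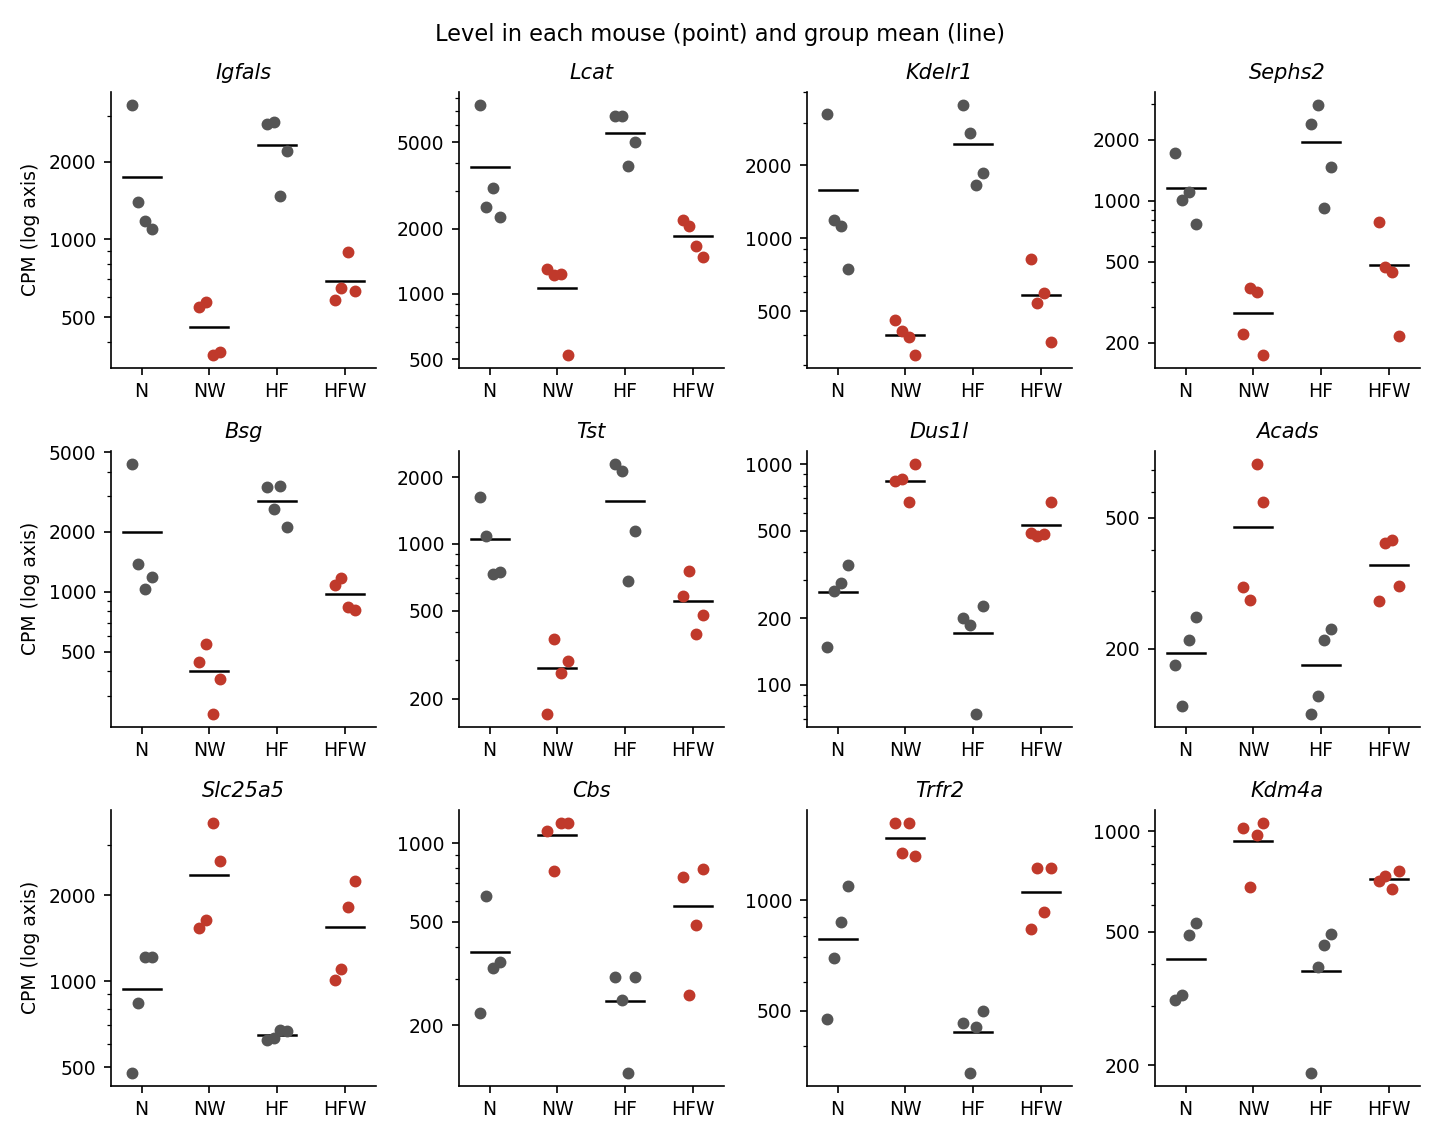
CPM of 12 genes in each mouse (points; log axis) with the group mean (line), for N, NW, HF and HFW; red points are mice with WEPAK. The 6 genes Igfals, Lcat, Kdelr1, Sephs2, Bsg and Tst were lower with WEPAK and the other 6 higher, and for Dus1l, Acads, Kdm4a, Igfals and Lcat no red point crosses the level of any grey point.

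Mitochondrial fatty acid oxidation removes acetyl-CoA from fatty acids in a cycle of chain-length specific dehydrogenases, a hydratase, another dehydrogenase and a thiolase, and PPARalpha is a main activator of its genes. The list of this pathway and of PPARalpha targets held 44 genes, of which 23 could be tested; 4 rose, 3 fell and 16 did not pass. Their median was -0.03, beside 0.03 over all genes, and their share that passed (30.4%) lay near the 31.3% of all genes. Acaa2, the mitochondrial thiolase, had 149, 209.8, 304 and 432 CPM in N, 597, 561, 712 and 678 in NW, 116, 100.1, 131 and 195 in HF, and 302, 297, 559 and 385 in HFW. Its groups did not overlap within either diet, at a log2 fold change of 1.36 (SE 0.23). Acads, the dehydrogenase for short chains, had 179, 133, 212 and 249 CPM in N, 307, 280.4, 730.3 and 556 in NW, 126, 144, 213 and 229 in HF, and 278, 419, 429 and 310.0 in HFW. All 8 mice with WEPAK lay above all 8 without, at 1.12 (SE 0.24). Etfa, a subunit of the flavoprotein that takes electrons from these dehydrogenases, had 2797 to 6711 CPM in N, 7562 to 12779 in NW, 2729 to 3799.7 in HF and 4908 to 9297 in HFW, and rose by 1.03 (SE 0.20). Acaa1a, the peroxisomal thiolase, rose by 1.02 (SE 0.22), with 0.77 on the normal and 1.28 on the high-fat diet.

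Other steps of the same pathway went down. Acadvl, the dehydrogenase for very long chains, had 639.6, 439, 543 and 532 CPM in N, 239, 280.4, 225 and 209 in NW, 600.1, 732, 524 and 636 in HF, and 429, 384, 466 and 357 in HFW. The 4 NW mice were the lowest, no mouse with WEPAK overlapped those without it on its diet, and the log2 fold change was -0.88 (SE 0.18). Hadh, the dehydrogenase for shorter chains, had -0.90 (SE 0.27), but an edgeR adjusted p of 0.0606 without N mouse 4. It was named after its values were seen, as the 1 call of this list that was lost. Outside the list but by the same rule for naming, Lonp2, a protease of peroxisomes, rose by 0.90 (SE 0.19) with no overlap within either diet.

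**Figure D4:**
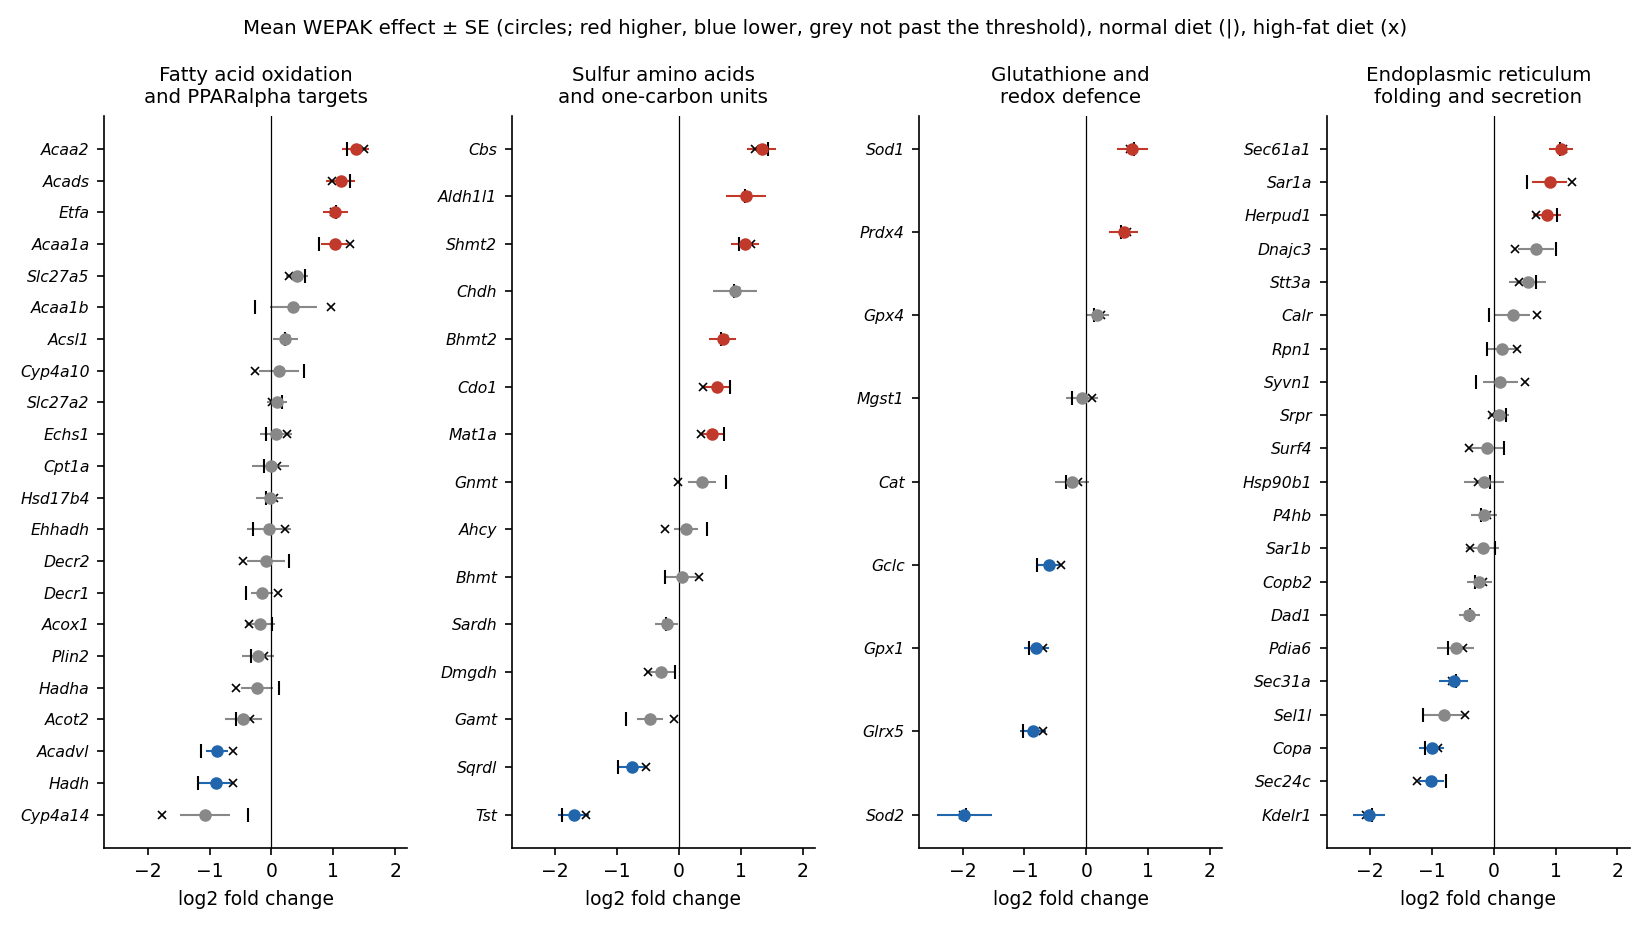
Mean WEPAK effect (log2 fold change, circles with SE) of tested genes of 4 lists, with the values on the normal diet (vertical ticks) and on the high-fat diet (crosses). Red genes rose, blue genes fell and grey genes did not pass. Each list holds genes on both sides of 0, from Acaa2 at 1.36 to Cyp4a14, not past the threshold, at -1.07 for fatty acid oxidation, and from Cbs at 1.34 to Tst at -1.70 for sulfur amino acids.

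Of 24 listed genes of fatty acid and triglyceride synthesis 8 could be tested, and 2 rose and 2 fell (50%, beside 31.3% of all genes), with a median of 0.31. Acly, which makes cytosolic acetyl-CoA from citrate, had 149 to 572 CPM in N, 93.6 to 139 in NW, 220.4 to 450.4 in HF and 139.8 to 329 in HFW, and Fads1, a desaturase of polyunsaturated fatty acids, had 1113 to 4501 CPM in N, 785 to 1286 in NW, 2000.2 to 3317 in HF and 1024 to 2198 in HFW. Acly did not overlap on the normal diet and fell by 1.22 (SE 0.27), and Fads1 overlapped on both diets and fell by 0.96 (SE 0.23). Of the 2 that rose, Thrsp, a lipogenic nuclear protein, had 1.46 (SE 0.37), and Dgat2, which adds the last acyl chain to triglyceride, 0.67 (SE 0.21). In the cholesterol list of 25, only 2 could be tested. Of 7 tested genes of bile acid synthesis and transport 1 rose and 1 fell (28.6%, near the 31.3% of all genes). Without N mouse 7 or N mouse 8, 2 rose. Acox2, an oxidase that shortens the side chain of bile acid precursors, rose. Slc10a1, the main transporter that takes bile salts up from the blood, fell. Acox2 had 119, 133, 172 and 349 CPM in N, 648, 348, 393 and 504 in NW, 105, 125, 197 and 237 in HF, and 371, 507, 447 and 498 in HFW. NW mouse 12, the lowest mouse with WEPAK, was just below N mouse 8, and no other pair crossed within a diet. The log2 fold change was 1.38 (SE 0.24) for Acox2 and -0.80 (SE 0.21) for Slc10a1, which ranged from 267 to 901 CPM with WEPAK and whose groups overlapped on both diets.

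Among 13 tested lipoprotein genes 3 rose and 3 fell (46.2%, beside 31.3% of all genes), with a median of 0.34, and 10 of the 13 had a positive value. The falls beside Lcat were those of Apoc1, an apolipoprotein that slows lipoprotein uptake, and Pon1, a lactonase carried on high-density lipoprotein. Apoc1 had 2573, 1812, 1747 and 1262 CPM in N, 904, 1045, 861 and 1043 in NW, 2284, 2278, 2023 and 2119 in HF, and 1450.3, 1415, 1341 and 1653 in HFW. All mice with WEPAK lay below those without it on their diet, and the log2 fold change was -0.75 (SE 0.17), beside -1.10 (SE 0.27) for Pon1. Abca1, which loads cholesterol onto nascent high-density lipoprotein, rose by 0.79 (SE 0.23), with 0.35 on the normal and 1.24 on the high-fat diet. That difference between diets was 0.89 (SE 0.47) and did not pass. The other 2 rises were lost when single mice were left out. Apoc2, the activator of lipoprotein lipase, had 1.16 with all mice, but 0.94 without NW mouse 15 (adjusted p = 0.0891), and was also lost without HF mouse 25 (1.05, adjusted p = 0.0592), HF mouse 29 (1.07, adjusted p = 0.0511) or HFW mouse 38 (1.06, adjusted p = 0.0553), all by edgeR. It was also lost without N mice 4 and 8 (0.88, edgeR adjusted p = 0.104). In all, 4 of the 6 genes passed in each fit without 1 mouse.

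Of 11 tested genes of glucose release, glycolysis and insulin response 5 rose and 0 fell, with a median of 0.18. That is 45.5% called, beside 31.3% of all genes, and 1 gene also fell without N mouse 5 or HF mouse 25. Fbp1, a phosphatase specific to gluconeogenesis, had 1369, 3423, 2872 and 2226 CPM in N, 4487, 3628, 3782 and 5093 in NW, 1411, 2084, 1368 and 1619 in HF, and 3039.8, 1905, 3819 and 4716 in HFW. NW and N did not overlap, while HFW mouse 36 lay below HF mouse 25, and it rose by 0.92 (SE 0.20). Slc2a2, the main glucose transporter of hepatocytes, had 238, 296, 318 and 515 CPM in N, 648, 382, 805 and 661 in NW, 284, 275, 328 and 237 in HF, and 557, 332, 596 and 545 in HFW. HFW and HF did not overlap, and NW mouse 12 lay below N mouse 8, at 0.86 (SE 0.21). Pck1, which turns oxaloacetate into phosphoenolpyruvate, overlapped on both diets, with 268 to 797 CPM in N, 678 to 1092 in NW, 205 to 364 in HF and 348 to 801 in HFW, and rose by 0.92 (SE 0.23). These 3 passed in each fit without 1 mouse. Pgk1 was lost without N mouse 4 (0.72, edgeR adjusted p = 0.0516), against 0.84 with all mice. Without N mice 4 and 8, 3 of the 11 rose.

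Sulfur amino acid and one-carbon metabolism links the methionine cycle, the transsulfuration of homocysteine to cysteine, and the transfer of one-carbon units on folate. Of 15 tested genes 6 rose and 2 fell (53.3% passed, beside 31.3% of all genes), with a median of 0.38 beside 0.03 over all genes. Without N mouse 4 or NW mouse 15, 4 rose, and 3 of the rises and both falls passed in each fit without 1 mouse. Without the 10 most abundant genes, which include Cdo1 of this list, 14 genes of the list were tested and 4 rose. Cbs, which joins homocysteine and serine, had 223, 629, 331 and 349 CPM in N, 1109, 782, 1198 and 1199 in NW, 305, 250.3, 131 and 305 in HF, and 743, 262, 484 and 799 in HFW. HFW mouse 36 lay within the HF range, NW lay wholly above N, and the log2 fold change was 1.34 (SE 0.24). Shmt2, which moves a one-carbon unit from serine to folate in mitochondria, had 461, 1173, 1548 and 2193 CPM in N, 2167, 2107, 2659 and 3581 in NW, 905, 719.7, 917 and 1653 in HF, and 2239, 3023, 2124 and 2076 in HFW. NW mice 11 and 12 lay below N mouse 8 while HFW and HF did not overlap, at 1.07 (SE 0.23). Aldh1l1, which oxidizes formyl-folate, had 29.8 to 229 CPM in N, 93.6 to 521 in NW, 63.2 to 106 in HF and 104 to 301 in HFW and rose by 1.09 (SE 0.32). Cdo1, which oxidizes cysteine and is among the most abundant tags, took 1.03% to 3.44% of a library. Its log2 fold change was 0.61 (SE 0.20), and 0.52 without N mouse 4 (edgeR adjusted p = 0.0517). Bhmt2, a methyltransferase that remethylates homocysteine, had 0.71 with all mice and 0.56 without NW mouse 15 (edgeR adjusted p = 0.0585), and its last tag is shared with 2 other genes.

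The 2 genes of the list that fell handle sulfide and related sulfur in mitochondria. Tst, rhodanese, which transfers sulfur to cyanide, had 1636, 1087, 728 and 747 CPM in N, 171, 374, 262 and 295 in NW, 2306, 2128, 679.7 and 1144 in HF, and 580.1, 751, 391 and 479 in HFW. NW lay below N, HFW mouse 36 lay above HF mouse 28, and the log2 fold change was -1.70 (SE 0.25). Sqrdl, the quinone oxidoreductase that oxidizes sulfide, had 253, 238, 318 and 332 CPM in N, 136, 178, 112 and 122 in NW, 242, 269, 188 and 254 in HF, and 139, 175, 186 and 169 in HFW. All 8 mice with WEPAK lay below all 8 without it, though by a narrow gap, at -0.76 (SE 0.21).

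Of 18 tested genes of amino acid breakdown and the urea cycle 3 rose and 4 fell (38.9%, beside 31.3% of all genes), with a median of 0.23. Tdo2, which opens the ring of tryptophan, had 74.4, 66.7, 132 and 116 CPM in N, 290.0, 238, 262 and 191 in NW, 94.7, 50.1, 49.1 and 136 in HF, and 104, 105, 205 and 178 in HFW. NW lay wholly above N, HFW mice 34 and 36 did not exceed HF mouse 29, and the log2 fold change was 1.10 (SE 0.27). Slc25a13, citrin, which carries aspartate out of mitochondria for the urea cycle, fell by 1.40 (SE 0.37), but did not pass without N mice 4 and 8 (-1.10, edgeR adjusted p = 0.0515). Agxt, which turns glyoxylate into glycine, had 0.64 (SE 0.19) and 0.45 without N mice 4 and 8 (edgeR adjusted p = 0.0927). Arg1, the last enzyme of the urea cycle, had -0.65, and was lost without N mouse 5 (-0.55, edgeR adjusted p = 0.0519) or HF mouse 23 (-0.53, edgeR adjusted p = 0.0605). Abat, which breaks down the amino acid GABA and stands outside the list, had 2916, 2222, 1773 and 1129.5 CPM in N, 785, 1164, 468 and 695 in NW, 2832, 3367, 1515 and 2552 in HF, and 998, 891, 783 and 1249 in HFW. NW mouse 12 lay just above N mouse 8, HFW lay below HF, and it fell by 1.36 (SE 0.21).

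In the redox list 6 of 9 tested genes passed, 2 higher and 4 lower (66.7%, beside 31.3% of all genes), with a median of -0.23. Sod2, the superoxide dismutase of mitochondria, had 1026, 458, 159 and 116 CPM in N, 188, 127, 112 and 17.4 in NW, 558, 1170.3, 401 and 466 in HF, and 128, 157, 112 and 235 in HFW. Its N values spread widely, NW overlapped N, HFW lay wholly below HF, and the log2 fold change was -1.97 (SE 0.44). The last tag of Sod2 was also that of 1 other gene. Gpx1, a selenium enzyme that reduces hydrogen peroxide, had 2752 to 3900.0 CPM in N, 1311 to 2099 in NW, 1654 to 5085 in HF and 1798 to 2403 in HFW. NW lay below N, HFW overlapped HF, and it fell by 0.81 (SE 0.20). Gclc, the rate-limiting enzyme of glutathione synthesis, fell by 0.61 (SE 0.18), and Glrx5, a mitochondrial glutaredoxin of iron-sulfur cluster assembly, by 0.86 (SE 0.21). Sod1, the cytosolic superoxide dismutase, had 0.74 (SE 0.25), but the call was lost when leaving out N mouse 4 (0.63, adjusted p = 0.0546), NW mouse 11 (0.68, adjusted p = 0.0547), HF mouse 29 (0.66, adjusted p = 0.0511), HFW mouse 38 (0.69, adjusted p = 0.0512) or HFW mouse 40 (0.59, adjusted p = 0.0845), all by edgeR. The 4 lower genes passed in each fit without 1 mouse and without N mice 4 and 8, and 0 of the 2 higher ones did. Gpx4, which reduces lipid peroxides and also carries selenium, did not pass at 0.18 (SE 0.19).

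Sephs2 makes the selenophosphate from which selenocysteine is built, and had 1726, 1011, 1098 and 764 CPM in N, 222, 374, 356 and 174 in NW, 2379, 2973, 925 and 1458 in HF, and 789, 472, 447 and 216 in HFW. No mouse with WEPAK overlapped those without it on its diet, HFW mouse 40 and NW mouse 20 were the lowest, and the log2 fold change was -2.004 (SE 0.27). Of 4 tested selenium genes 2 fell, Sephs2 and Gpx1 (50%, beside 31.3% of all genes).

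Proteins bound for export enter the endoplasmic reticulum through the translocon, leave in COPII vesicles and, if they are residents, come back in COPI vesicles with the help of KDEL receptors. Of 21 tested genes of this route 3 rose and 4 fell, with a median of -0.16, and their share that passed (33.3%) lay near the 31.3% of all genes. Sec61a1, the translocon's channel, had 223, 439, 331 and 515 CPM in N, 785, 858, 712 and 817 in NW, 305, 294, 237 and 169.5 in HF, and 476, 437, 615 and 648 in HFW. It lay higher in every mouse with WEPAK than in any without it on its diet, and rose by 1.09 (SE 0.20). Herpud1, which takes part in removing misfolded proteins, rose by 0.86 (SE 0.23), and Sar1a, the GTPase that starts COPII coats, by 0.91 (SE 0.28). The COPII cargo adaptor Sec24c fell by 1.01 (SE 0.20), with 831 to 2216 CPM in N, 765 to 1011 in NW, 1744 to 3648 in HF and 789 to 1357 in HFW. Copa, a subunit of the COPI coat, fell by 1.00 (SE 0.21), with 556 to 803 CPM in N, 206 to 433 in NW, 679.7 to 1453 in HF and 432 to 893 in HFW. HFW lay wholly below HF for Sec24c and NW below N for Copa, and the other pair of groups overlapped for each. Fam134a, an endoplasmic reticulum membrane protein outside the list, had 7345 to 20097 CPM in N, 1929 to 3841 in NW, 10733 to 16788 in HF and 3842 to 7933 in HFW without overlap within a diet, and fell by 1.45 (SE 0.22).

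Of 11 tested genes of the lysosome list 3 rose and 1 fell (36.4%, near the 31.3% of all genes), and 1 of these 4, Grn, passed in each fit without 1 mouse. Without HFW mouse 38, 1 rose. Grn encodes progranulin, a precursor of lysosomal granulins, and had 257 to 516 CPM in N, 563 to 1292 in NW, 322 to 426 in HF and 489 to 685 in HFW. Its groups did not overlap within either diet, at 0.96 (SE 0.20). Of the membrane proteins Lamp1 and Lamp2, the first had 0.63 and was lost without HFW mouse 38 (0.51, edgeR adjusted p = 0.0622). The second had -0.93 and was lost without HF mouse 23 (-0.69, edgeR adjusted p = 0.0725) or HFW mouse 40 (-0.81, edgeR adjusted p = 0.0559). Smpd1, the lysosomal sphingomyelinase, which stands outside the list, was among the 5 genes with the largest fall, at -2.23 (SE 0.41), with 132 to 491 CPM in N, 17.1 to 69.5 in NW, 229 to 611 in HF and 34.9 to 209 in HFW. Rab5c, a GTPase of early endosomes, had 19.1 to 106 CPM in N, 59.5 to 191 in NW, 10.5 to 67.8 in HF and 113 to 168 in HFW and rose by 1.48 (SE 0.37). Among 4 tested Rab genes 1 rose and 1 fell (50%, beside 31.3% of all genes), with a median of -0.59.

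The other 4 of the largest falls were those of Csda, a cold-shock domain protein that binds RNA and DNA, Lactb, a mitochondrial protein, Dnajc15, a cochaperone of mitochondrial import, and Fbxl14, an F-box protein. Csda had 193, 57.2, 79.4 and 33.2 CPM in N, 17.1, 8.50, 0 and 17.4 in NW, 211, 225, 156 and 102 in HF, and 81.2, 17.5, 18.6 and 18.8 in HFW. The groups did not overlap within either diet, and the values with WEPAK stand for few tags, 1 tag being worth 6.70 to 17.7 CPM of a library's total. Its log2 fold change was -2.58 (SE 0.48), and Lactb had -2.42 (SE 0.39), Dnajc15 -2.34 (SE 0.49) and Fbxl14 -2.26 (SE 0.41). Fitted values of genes this low depend on the prior count.

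Of 8 tested genes of iron handling 3 rose and 0 fell (37.5%, beside 31.3% of all genes), with a median of 0.30. In 4 of the other fits 1 gene of the list also fell: by limma-voom, in the non-robust fit, and without HF mouse 28 or HFW mouse 40. Trfr2, which senses iron-loaded transferrin at the hepatocyte surface, had 476, 696, 873 and 1096 CPM in N, 1621, 1342, 1629 and 1321 in NW, 463, 338, 450.4 and 500.1 in HF, and 835, 1223, 932 and 1221 in HFW. HFW and HF, and NW and N, did not overlap, and the log2 fold change was 1.09 (SE 0.19). Slc39a14, a transporter of zinc and free iron, had 238, 477, 344 and 415 CPM in N, 665, 714, 1142 and 626 in NW, 389.5, 238, 213 and 356 in HF, and 255, 681, 615 and 545 in HFW. NW lay above N, HFW mouse 34 lay within the HF range, and it rose by 0.94 (SE 0.22). Cp, ceruloplasmin, a copper enzyme that oxidizes iron for export, rose by 0.81 (SE 0.24), with 0.40 on the normal and 1.22 on the high-fat diet. Hamp, the iron hormone hepcidin, did not pass at -1.46 (SE 0.65). Slc39a7, a zinc transporter of the endoplasmic reticulum outside the list, rose by 1.18 (SE 0.24), with 104 to 199 CPM in N, 221 to 431 in NW, 52.6 to 139 in HF and 186 to 242 in HFW.

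Few genes of the acute phase passed. Of 29 tested acute phase, complement and coagulation genes 1 rose and 2 fell (10.3%, against 31.3% of all genes), with a median of 0.04, and 3 rose without N mouse 8. Itih3, a protein that binds hyaluronan, rose by 0.85 (SE 0.21), while Hgfac, the activator of hepatocyte growth factor, fell by 0.94 (SE 0.25) and Serpinc1, antithrombin, by 0.64 (SE 0.19). Of 16 tested secreted carriers and binding proteins 4 rose and 2 fell (37.5%), with a median of 0.18, and 1 or 2 fell in the fits without 1 mouse. Gc, the vitamin D carrier, had 3451, 7647, 8033 and 13455 CPM in N, 13478, 12652, 12096 and 13158 in NW, 3000.4, 2528, 5175 and 6358 in HF, and 7367, 10851, 9856 and 9939 in HFW. N mouse 8 reached the NW range, HFW lay wholly above HF, and the log2 fold change was 0.91 (SE 0.22). Ttr, the thyroid hormone carrier, rose by 0.85 (SE 0.26), and Ambp, the precursor of a microglobulin and of bikunin, by 0.73 (SE 0.21). Igfbp4, which binds insulin-like growth factors, rose by 0.80 (SE 0.18) while Igfals fell. Its last tag is shared with 35 other genes.

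**Figure D5:**
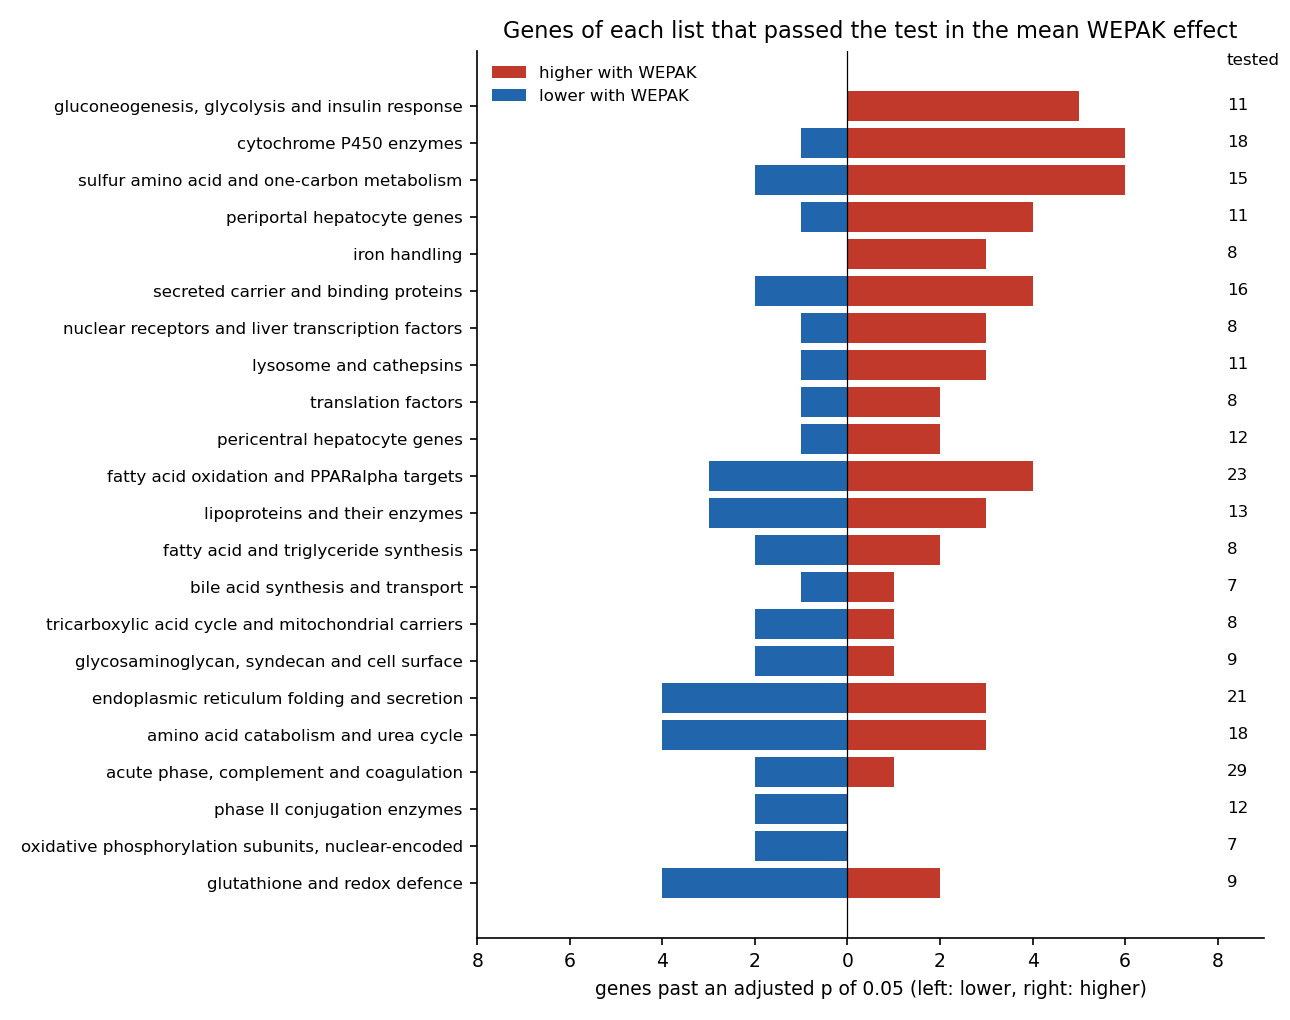
Number of genes that rose (right, red) and fell (left, blue) in the mean WEPAK effect for each pathway list with at least 7 tested genes, with the number tested at the right edge and cell type markers not drawn. With all 16 mice the glucose (5 against 0) and iron (3 against 0) lists show rises only, the oxidative phosphorylation and phase II lists (2 falls each) falls only, and the other lists drawn both, and each of these 4 lists had calls in the other direction too in some fits without 1 mouse.

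Of 18 tested cytochrome P450 genes 6 rose and 1 fell (38.9%, beside 31.3% of all genes), with a median of 0.40, and 4 to 7 rose in the fits without 1 mouse. The falls were 2 without NW mouse 20 or HF mouse 28. Cyp2d10, an enzyme of drug oxidation, had 298, 124, 371 and 415 CPM in N, 597, 425, 730.3 and 521 in NW, 295, 194, 278 and 212 in HF, and 359.7, 384, 596 and 564 in HFW. Each mouse with WEPAK lay above those without it on its diet, at 0.95 (SE 0.22). Cyp21a1, the steroid 21-hydroxylase, rose by 1.31 (SE 0.30), Cyp2d40 by 0.97 (SE 0.27) and Cyp2d22 by 0.62 (SE 0.19), though Cyp2d22 had 0.52 without N mice 4 and 8 (edgeR adjusted p = 0.0632). Reads of such close relatives can be split between them, and the last tag of Cyp2d40 is shared with 5 other genes. Cyp2c29, a P450 of the pericentral zone, had 410.3 to 896 CPM in N, 156 to 416 in NW, 172 to 1026 in HF and 74.5 to 454 in HFW and fell by 1.34 (SE 0.35), but not without N mice 4 and 8 (-1.33, edgeR adjusted p = 0.0519). Of 12 tested phase II enzymes 0 rose and 2 fell (16.7%, beside 31.3% of all genes). This split depended on the setting: limma-voom gave 1 higher and 1 lower, and thinning to the smallest library or a minimum of 20 counts in 8 libraries gave 1 higher and 0 lower. In the fits without 1 mouse 0 or 1 rose and 1 or 2 fell. Ephx1, an epoxide hydrolase, fell by 1.04 (SE 0.30) with no overlap within either diet. Thinned to the smallest library, Ephx1 had -0.85 (edgeR adjusted p = 0.0816). Of 11 tested periportal genes 4 rose and 1 fell, with a median of 0.34, and of 12 pericentral genes 2 rose and 1 fell, with a median of 0.50. Their shares that passed were 45.5% and 25%, and in the fits without 1 mouse the rises ran from 3 to 5 and from 1 to 4. Apof, an apolipoprotein listed as periportal, rose by 0.83 (SE 0.22), and Ces1c, a carboxylesterase listed as pericentral, by 0.78 (SE 0.22).

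Among 8 tested nuclear receptors and liver transcription factors 3 rose and 1 fell (50%, beside 31.3% of all genes). Without N mouse 4, 1 rose and 1 fell, the filter on low counts left out gave 0 and 2, and 1 rise passed in each fit without 1 mouse. Creb3l3, a membrane-bound factor of the fasting liver, rose by 0.69 (SE 0.20). Nr1i3, the constitutive androstane receptor, had 0.76, and was lost without N mouse 4 (0.66, adjusted p = 0.0677), NW mouse 12 (0.70, adjusted p = 0.0608), HFW mouse 38 (0.69, adjusted p = 0.0604) or HFW mouse 40 (0.62, adjusted p = 0.0905), all by edgeR. Of 4 tested clock genes 2 rose, among them Tef, and Nr1d1 fell (75%, beside 31.3% of all genes). Nr1d1 encodes REV-ERBalpha, a repressor of the clock, and had 372, 439, 251 and 266 CPM in N, 188, 127, 131 and 69.5 in NW, 305, 257, 229 and 186 in HF, and 209, 192, 186 and 103 in HFW. NW lay below N, HFW overlapped HF, and it fell by 0.95 (SE 0.23). Tef, a clock output factor, had 0.56, and was lost without N mouse 4 (0.46, adjusted p = 0.0592) or NW mouse 11 (0.51, adjusted p = 0.0559) by edgeR. The labels give no time of day of tissue collection, and its part in these values was not tested.

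Mitochondria also import carriers, respiratory subunits and ribosomal proteins made from nuclear genes. Of 8 tested genes of the tricarboxylic acid cycle and carriers Slc25a5 rose, and Slc25a13 and Fh1 fell (37.5%, beside 31.3% of all genes). Fh1, fumarase, had 164, 209.8, 146 and 99.7 CPM in N, 68.2, 119, 18.7 and 156 in NW, 189, 275, 180.2 and 186 in HF, and 104, 34.9, 55.9 and 65.8 in HFW. HFW lay wholly below HF, NW mice 12 and 20 lay within the N range, and it fell by 1.17 (SE 0.29). Of 7 tested nuclear-encoded subunits of oxidative phosphorylation 0 rose and 2 fell (28.6%, near the 31.3% of all genes), Ndufb9 of complex I by 0.69 (SE 0.20) and Atp5j2 of the ATP synthase by 0.73 (SE 0.22). Without HFW mouse 34, 2 rose and 2 fell. Mrps14, of the small mitochondrial ribosomal subunit, had 463 to 1413 CPM in N, 206 to 357 in NW, 958 to 1466 in HF and 385 to 522 in HFW with no overlap within a diet, and fell by 1.46 (SE 0.22). It was the 1 gene of 3 tested on its list that passed (33.3%, near the 31.3% of all genes). Of 5 tested cytosolic ribosomal protein genes 0 passed by edgeR, and 0 also by DESeq2 and limma-voom, while 0 had an unadjusted p under 0.05. Of 8 tested translation factors 2 rose and 1 fell (37.5%, beside 31.3% of all genes). Of these calls 1 held in each fit without 1 mouse, that of Eef1b2 at 1.32 (SE 0.22), with the shared tag given above. Vcp, an ATPase that pulls proteins out of complexes for the proteasome, rose by 0.88 (SE 0.24). In its list of the proteasome and ubiquitin 1 of 5 tested genes rose and 1 fell (40%), with a median of -0.50.

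Whether the extract acted differently on the 2 diets was tested as the difference HFW minus HF less NW minus N. By edgeR 0 of 1046 genes passed (0%), 26 had an unadjusted p under 0.05 (2.49%), and the smallest adjusted p was 0.998. DESeq2 and limma-voom also passed 0, with 16 and 35 genes at an unadjusted p under 0.05. The SE of this difference was 0.50 at the median, against 0.25 for the mean WEPAK effect, so that differences between the diets were measured less precisely than their mean. The gene with the smallest unadjusted p was St3gal5, a ganglioside synthase, with 59.5, 47.7, 39.7 and 66.4 CPM in N, 102, 153, 225 and 104 in NW, 126, 163, 98.3 and 102 in HF, and 104, 87.4, 37.3 and 56.4 in HFW. NW lay above N, while HFW mice 36, 38 and 40 lay below HF, and the difference was -2.21 (SE 0.61). Zbtb16, a zinc finger repressor, had 2.45 on the normal and 0.21 on the high-fat diet. Its mean effect of 1.33 was lost without NW mouse 12 (1.17, edgeR adjusted p = 0.0558).

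For comparison, the mean effect of the high-fat diet over both extract states, fitted on the same 16 mice, passed for 6 genes (0.574%), 3 higher and 3 lower. This count ran from 0 (without N mouse 7, NW mouse 11, NW mouse 15 or HF mouse 23) to 107 without N mouse 4. The 4 genes that passed for both had values of opposite sign. Fbxo3, an F-box protein, had 1.32 with WEPAK and -1.04 with the high-fat diet. Ephx1 had -1.04 and 1.49, Glrx5 -0.86 and 0.94, and Chmp4b, of the membrane-cutting ESCRT machinery and named after its values were seen, -0.94 and 0.86. Both effects use the same mice, so these values are set side by side and not counted as agreement.

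Other liver cells were followed by marker lists, since in whole liver fewer cells of a type and less RNA per cell cannot be told apart. The 13 hepatocyte markers summed to 67430 to 93967 CPM in N, 94537 to 114297 in NW, 60829 to 72714 in HF and 62072 to 87859 in HFW. NW lay wholly above N, and the sum was 19219 CPM higher with WEPAK on average (exact permutation test within diets, two-sided p = 0.00449, adjusted p = 0.0763 over 17 measures). Of 12 tested hepatocyte markers 1 passed, Ttr (8.33%, against 31.3% of all genes). Apoa2 alone holds most of the sum and did not pass, at 0.37 (SE 0.17), but passed without HFW mouse 34 (0.48, edgeR adjusted p = 0.0265) or N mouse 8 (0.48, edgeR adjusted p = 0.0344). The 16 Kupffer cell and macrophage markers, of which Cd14, Cd68, Ctss and Lyz2 had no tag, summed to 868 to 1112 CPM in N, 648 to 1071 in NW, 661 to 1333 in HF and 594 to 1439 in HFW. The 14 stellate cell and fibroblast markers, with Acta2, Rgs5 and Timp1 at 0, ran from 1092 to 4619 CPM over all mice, and the 14 of endothelium from 648 to 1195 CPM. With WEPAK minus without it these 3 sums averaged -137, 178 and -55.9 CPM. The exact p of these 3 sums was 0.294, 0.746 and 0.360, and their part in the gene differences above was not tested. Of their 10 tested members 1 passed: Oit3, a gene of sinusoidal endothelium, at -0.57 (edgeR adjusted p = 0.0476), which was lost in 13 of the 16 fits without 1 mouse, at -0.66 to -0.47. Of 12 Kupffer cell markers with a tag only 3 could be tested. Of these 3, 0 passed and 2 had a positive value, while the sum of their list was lower on average. C1qa, with 291 to 928 CPM, held the largest part of that sum. The sum therefore says little about the members with few tags, which were not tested. None of the markers of other cell types could be tested. Of 10 bile duct markers 4 had a tag, and their sum ran from 0 to 93.2 CPM. Of 8 markers of red blood cells 4 had a tag and summed to 67.8 to 256 CPM, mainly from Hba-a2, an alpha globin, which had tags in all 16 libraries at 56.2 to 222 CPM. The lymphocyte list had tags for 5 of 15 markers (0 to 93.2 CPM) and that of the exocrine pancreas for 1 of 11 (0 to 10.5 CPM). The defining genes Krt7 and Krt19 of bile duct, Prss2 of pancreas and Cd4 and Cd8a of T cells had no tag in any library. A count of 0 allows up to 3 tags, and only where the tag of a gene was matched to it. The beta globin genes Hbb-b1 and Hbb-b2 also had no tag in any library, although Hba-a2 had tags in all 16. These counts of 0 are therefore not read as absence of the cells.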

How the data were processed

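SuperSAGE tags had been counted per RefSeq transcript in 16 mouse livers, and the deposited table holds raw counts, whole numbers per row, per the file headers. Per the labels' protocols, cDNA was cut with NlaIII and EcoP15I; the sources used here do not give the tag length, the matching method or the genome build. Counts of rows with the same gene symbol were summed; 416 of 26782 rows had no symbol, and they and 1 row with a date in place of a symbol were left out (0.0729% of tags). Of 20826 symbols 10171 had a tag, and 1046 passed the edgeR 4.0.16 filter (filterByExpr, minimum count 10). Libraries were scaled by TMM, and a robust quasi-likelihood model of 4 groups was fitted (R 4.3.3). P-values were adjusted by Benjamini-Hochberg at 0.05; SEs are approximate, from the fold change on the log2 scale over the root of F. DESeq2 1.42.0 and limma 3.58.1 (voom), other filters, other scaling, thinning and leaving out mice were tried. Tested on simulated data for the mean WEPAK effect (979.6 genes on average), the model found 29.7% of genes changed 1.5-fold, 82.6% changed 2-fold and 99.7% changed 4-fold, and 3.32% of its calls were false. These counts were drawn independently for each gene, with 200 changed genes, and hold no shift shared by many genes of 1 mouse. Tags carry no molecular identifiers, so limits from counts cover counting error only. No 2 libraries of a group agreed within sampling noise.

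The lists and members were chosen with earlier results of these data known. Named genes were the 15 higher and 15 lower with the smallest p, the 5 of each with the largest change, up to 6 of each list past the threshold with the smallest p (or 2 where none passed), the 5 with the smallest p for the difference between diets, and genes above 1% of tags. Some were left out for length, and a few that the rule would name are not reported here. Abcc9, Rad54l2, Cdc37, Paqr9, Zdhhc9, Apol7a, 2310003F16Rik, Chmp4b, Hadh, Hamp, Hba-a2, Hbb-b1 and Hbb-b2 were named outside the rule after their values were seen.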

Additional observations from a re-analysis of the deposited data

Results flagged for a closer look

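Values of 1 mouse far from the other 3 of its group were looked for in 99 genes named above, as a gap to the nearest mouse above Dixon's critical share of the group's range of log2 CPM, which chance alone gives in about 1 in 20 groups of 4. It was met in 18 of 396 combinations of gene and group, 4.55% of them, spread over 11 mice. HFW mouse 40 stood apart in 4 genes. It was highest for Acly with 329 CPM (the others 140 to 162) and Dus1l with 676 CPM (472 to 487), and lowest for Eef1b2 with 272 CPM (419 to 447) and Nr1d1 with 103 CPM (186 to 209). HFW mouse 34 was lowest for Apoa2 with 35062 CPM (61240.5 to 65230.3) and Atp5j2 with 174 CPM (261 to 282), and highest for Csda with 81.2 CPM (17.5 to 18.8). HFW mouse 36 was lowest for Slc2a2 with 332 CPM (545 to 596).

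Among mice without the extract, HF mouse 23 was lowest for Aldh1l1 with 63.2 CPM (98.3 to 106) and highest for Apof with 547 CPM (314 to 336). HF mouse 25 was highest for Fh1 with 275 CPM (180.2 to 189), HF mouse 28 lowest for Cyp2c29 with 172 CPM (771 to 1026), and HF mouse 29 highest for Dgat2 with 14953 CPM (8433 to 9099). N mouse 4 was highest for Fam134a with 20097 CPM (7345 to 7609), and N mouse 5 lowest for Lamp1 with 505 CPM (714 to 744). NW mouse 20 was lowest for Lcat with 521 CPM (1224 to 1297) and highest for Atp5j2 with 330.3 CPM (195 to 206). NW mouse 12 was highest for Slc10a1 with 901 CPM (504 to 512). No gene passed the test of a difference between the diets.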

How the results depend on the processing

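In each setting every gene of the 327 that could be tested kept its direction. Of the 327 genes 195 passed in each fit without 1 mouse and in most other settings in which they could be tested. This count leaves aside the unfiltered fit, the minimum of 20 counts in 8 libraries and the separate RefSeq rows. In the unfiltered fit 198 of the 327 passed. Leaving out 1 mouse gave 263 to 386 genes in the mean WEPAK effect, 114 to 202 higher and 143 to 184 lower, 31 to 178 on the normal diet, 40 to 150 on the high-fat diet, 0 to 0 for the difference between diets and 0 to 107 for the mean high-fat effect. The filter was run anew in each of these fits, and 1059 to 1217 genes were tested. Without the filter on low counts there were 65 higher genes in the mean WEPAK effect, 70 genes on the normal diet and 30 for the mean high-fat effect. With at least 20 counts in 8 libraries 492 genes were tested, and 198 passed (100 higher, 98 lower), with 0 for the mean high-fat effect. The DESeq2 Wald test gave 34 genes for the mean high-fat effect. Without N mice 4 and 8, 1359 genes were tested. There were then 104 higher genes, 38 genes on the normal diet, 156 on the high-fat diet and 55 for the mean high-fat effect. Beyond the number of genes and mice entering, the cause was not tested. Of the same 1046 genes, 93 had no overlap in both diets without these mice (57 with all mice). Fewer mice leave less room for overlap, so no conclusion is drawn from this rise. Scaling by DESeq2 size factors, the minimum of 10 counts in 4 libraries, limma-voom, the non-robust and additive fits, and separate RefSeq rows gave 322 to 337 genes. No paired analysis was possible because no mouse number is shared between groups. Depth limits the results to abundant genes: 1046 of 10171 genes with a tag could be tested. The simulated data above give the share found at each size of change only for counts drawn independently for each gene.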
